A study of Mus musculus with 20 samples.

Results

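The 88 genes described here encode, with few exceptions, the proteins of the cytosolic ribosome. They were the genes of the count table whose symbol had the form Rpl or Rps followed by a number, together with Rplp0, Rplp1 and Rplp2, and they were 88 of 22734 genes listed. Symbols of annotated pseudogenes of the form -ps and of the S6 kinases (Rps6k) were not taken. By role, 43 encode proteins of the large subunit, 30 proteins of the small subunit and 3 the P stalk, and these 76 are called core members below. A further 11 symbols belong to paralogues or retrogene copies (Rpl22l1, Rpl36al, Rpl37rt, Rpl39l, Rpl6l, Rpl7l1, Rps27l, Rps27rt, Rps3a2, Rps3a3 and Rps4l). The last, Rps19bp1, fits the form of the name, but its product binds RPS19 and is no ribosomal protein.

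Total RNA depleted of ribosomal RNA was sequenced from the sensory epithelium of the cochlea and from the superior olivary complex (SOC), the first station of the central auditory pathway that receives input from both ears, at embryonic day 16 (E16), at birth (P0) and at postnatal day 16 (P16). The cochlear libraries, 3 at each age, came from untreated wild-type C57BL/6JOlaHsd mice of both sexes. The SOC libraries (E16, n = 4; P0, n = 4; P16, n = 3) came from untreated wild-type C57Bl6/J mice of both sexes, and the SOC was cut on a cryostat from frozen heads at E16 and from brains removed from the skull at the later ages. Each library pooled tissue of several animals, so a p-value measures the spread between pools. Organ cannot be told apart from substrain, library kit and sequencing run, and levels were therefore compared between ages within an organ. Total counts lay between 20843679 and 33109083 per library.

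Ribosomal proteins are imported into the nucleolus and assembled with ribosomal RNA into the small subunit, which decodes the messenger, and the large subunit, which joins amino acids. Because each ribosome holds a fixed set of proteins, their messengers are among the most abundant in growing cells and are regulated together. Most begin with a C followed by an uninterrupted stretch of pyrimidines, the 5′ terminal oligopyrimidine (TOP) motif, through which mTOR and LARP1 control their translation and stability. Cells that divide or grow make many new ribosomes, whereas differentiated neurons and sensory cells replace existing ones.

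The start of the messenger was read from the RefSeq promoter table (GRCm38.p6) for 56 of the 76 core members and 7 of the 11 paralogues. The windows below cover 30 bases with the annotated start at base 16. They are shown because the motif occurs in some genes of both subunits and in Rplp2 of the stalk. Rplp0, also of the stalk, had it neither at its annotated start nor within 5 bases of it. Capitals mark a C at the start followed directly by at least 4 bases that are C or T, read on the strand of the gene.

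Rps6, chr4:86857353-86857382, minus strand: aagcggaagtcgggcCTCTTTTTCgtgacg
Rps18, chr17:33955651-33955680, minus strand: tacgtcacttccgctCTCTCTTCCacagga
Rps15a, chr7:118116133-118116162, minus strand: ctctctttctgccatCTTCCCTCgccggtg
Rps27, chr3:90213634-90213663, minus strand: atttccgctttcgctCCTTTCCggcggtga
Rpl28, chr7:4792950-4792979, plus strand: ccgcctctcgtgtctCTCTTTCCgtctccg
Rpl35, chr2:39005117-39005146, minus strand: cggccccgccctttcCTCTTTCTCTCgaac
Rpl38, chr11:114668565-114668594, plus strand: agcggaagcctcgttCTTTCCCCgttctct
Rplp2, chr7:141447636-141447665, plus strand: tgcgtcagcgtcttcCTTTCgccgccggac

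The windows of 4 paralogues are shown beside these 8, which were taken from the 13 core members with the motif at the start. None of the 4 has the motif at its annotated start (for Rps27l, the upstream of its 2 starts), but Rpl22l1 and Rps27l hold it within 5 bases of it.

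Rpl7l1, chr17:46782642-46782671, minus strand: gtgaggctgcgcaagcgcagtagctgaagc
Rpl22l1, chr3:28805493-28805522, plus strand: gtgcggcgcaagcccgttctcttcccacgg
Rpl36al, chr12:69184053-69184082, minus strand: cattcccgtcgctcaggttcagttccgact
Rps27l, chr9:66946071-66946100, plus strand: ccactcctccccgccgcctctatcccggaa

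The motif stood exactly at the annotated start of 13 of 56 core members (23.2%), of 1 of 7 paralogues (14.3%) and of 408 of 13159 genes tested in either organ that had an entry (3.1%). When the start could lie up to 5 bases away, the shares were 48.2%, 42.9% and 23.6%. The absence of the motif says only that these letters were not in the window, since an annotated start can lie several bases from the base at which transcription begins.

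The tissue labels were checked against marker genes first. In the cochlea all 6 hair cell markers were detected at each age, with summed levels of 79.8 to 88.2 CPM (a count divided by the total of its library and scaled to a common total) at E16 and 372 to 483 at P16. Other cochlear lists moved as well: supporting cell markers summed to 2138 to 2287 CPM at E16, 4383 to 5743 at P0 and 1416 to 1683 at P16, and cartilage markers to 4854 to 5864, 10570 to 12110 and 2637 to 3618, both highest at P0 and lowest at P16 as the members were. Schwann cell markers went from 186 to 291 CPM at E16 to 3656 to 4243 at P16 and neuronal markers, with Slc6a5 at 0, from 167 to 228 to 1055 to 1502. In the SOC the hair cell markers Slc26a5 and Tmc1 were listed at 0, but the others of the list were detected. The SOC sum of the list was 37.8 to 73.4 CPM at E16, 38.9 to 70.4 at P0 and 13.7 to 24.2 at P16. Neuronal markers in the SOC summed to 1447 to 2283 CPM at E16 and 4730 to 5287 at P16. Myelinating oligodendrocyte markers, which come from cells other than neurons, summed there to 93.6 to 184 and 36980 to 38320. Markers of dividing cells summed to 780 to 951 CPM at E16, 284 to 296 at P0 and 50.8 to 407 at P16 in the cochlea, and in the SOC they went from 616 to 691 over 107 to 210 to 18.1 to 31.7. The cochlear P16 libraries also held marrow neutrophil markers, at 51.4 to 451 CPM against 6.80 to 8.51 at E16, with the highest value in replicate 3, and B-lymphoid markers at 18.3 to 76.7 against 2.38 to 2.82. The SOC E16 libraries held skeletal muscle markers at 724 to 1533 CPM against 9.23 to 15.6 at P0, cartilage markers at 4479 to 9535 against 13.3 to 67.0 and erythroid markers at 1542 to 3024 against 158 to 328. The part of these cells in the results below was not tested, and in bulk RNA fewer cells of a type cannot be told apart from less RNA per cell.

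Summed over all members, ribosomal protein mRNA was lowest at P16 in both organs, and its highest mean was at P0 in the cochlea and at E16 in the SOC. In the cochlea the sum was 23766, 22554 and 22328 CPM in the 3 libraries of E16, 24441, 26170 and 25257 CPM at P0, and 7046, 7750 and 7740 CPM at P16. The SOC sum was 40077, 30917, 36680 and 30165 CPM at E16, 25776, 22206, 20586 and 22427 CPM at P0, and 10833, 11057 and 11779 CPM at P16. No library of an age overlapped with those of another age of the same organ. The cochlear mean was 22883 ± 773 CPM (SD, n = 3) at E16, 25289 ± 865 at P0 and 7512 ± 403 at P16, 3.05-fold lower than at E16 and 3.37-fold lower than at P0. The SOC mean was 34460 ± 4743 CPM (SD, n = 4) at E16, 22749 ± 2179 (n = 4) at P0 and 11223 ± 494 (n = 3) at P16, so it was 1.52-fold lower at P0 and 3.07-fold lower at P16 than at E16. After scaling of the libraries by TMM factors (trimmed mean of M-values), which correct for a few very abundant genes, the mean at P16 was 2.88-fold below that at E16 in the cochlea and 2.497-fold in the SOC.

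**Figure D1:**
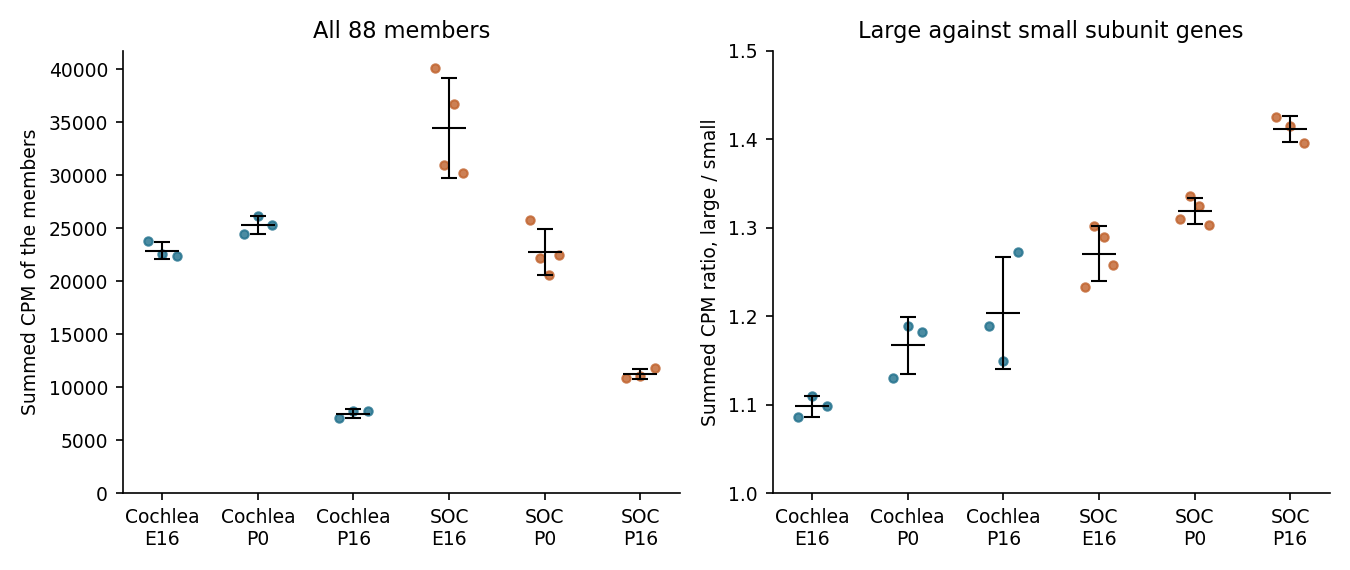
Summed level of the 88 members in each library (CPM, left) and ratio of the summed large subunit to the summed small subunit members (right), by organ and age. Points are libraries, and bars are the mean and SD; the ratio axis starts at 1.0. The cochlear sum stayed between 22328 and 26170 CPM at E16 and P0 and lay between 7046 and 7750 CPM at P16, whereas the SOC sum was lower at each later age.

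The members of the large and small subunit moved together. Between E16 and P16 the summed level of the large subunit genes was 2.93-fold lower in the cochlea and 2.91-fold lower in the SOC, that of the small subunit genes 3.21-fold and 3.24-fold lower, and that of the P stalk genes 3.19-fold and 3.99-fold lower. The paralogues and retrogene copies together were 1.71-fold and 1.79-fold lower, and their share of all member CPM was 0.847% at E16 and 1.51% at P16 in the cochlea and 1.08% and 1.85% in the SOC. The ratio of the summed large to the summed small subunit genes in the cochlea was 1.10 ± 0.012 (SD, n = 3) in E16 libraries, 1.17 ± 0.032 at birth and 1.20 ± 0.063 at P16. It was 1.27 ± 0.031 (n = 4) in the SOC at E16, 1.32 ± 0.015 (n = 4) at P0 and 1.41 ± 0.015 (n = 3) at P16. In each organ all E16 libraries lay below all P16 libraries in this ratio.

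Gene by gene, 75 of the 86 members tested in the cochlea fell from E16 to P16 and 1 rose at an adjusted p below 0.01 (edgeR quasi-likelihood test, Benjamini-Hochberg), where 23.6% of all 21097 genes tested fell and 26.2% rose. The median log2 fold change of the members was -1.48, against 0.01 for all genes. By role, 39 of 43 large subunit genes, 27 of 30 small subunit genes and all 3 P stalk genes fell, and of 9 paralogues and retrogenes 5 fell and 1 rose. At least 2.5-fold and without overlap between libraries, 56 members fell and 1 rose, with 9.59% and 14.8% of all genes. In 81 members every P16 library lay below every E16 library (36.5% of all genes). From P0 to P16, 81 of 86 fell and 1 rose, against 24.8% and 27.0% of all genes, with a median of -1.73, and 67 fell and 1 rose under the stricter rule (10.5% and 14.4% of all genes). Rpl39l and Rpl6l were at 0 in all cochlear libraries and could not be tested.

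Rps26, a small subunit protein near the exit channel of the messenger (chromosome 10, 128624534 to 128626747, mm10), had the largest decrease from E16 to P16 among members of at least 20 CPM in the cochlea. Its level was 284, 303 and 274 CPM at E16, 303, 362 and 340 at P0, and 44.1, 47.0 and 78.1 at P16. The P16 libraries lay below all others, with replicate 3 highest among them. The log2 fold change from E16 to P16 was -2.27 (SE 0.20, adjusted p = 2.52e-06, edgeR), a 4.81-fold decrease, and from P0 it was -2.59 (6.02-fold). In the SOC the gene was at 323, 280, 316 and 221 CPM at E16 and 62.9, 72.2 and 74.0 at P16, a log2 fold change of -1.73 (adjusted p = 7e-07).

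Rpl12, which lies at the base of the P stalk, was at 310, 328 and 282 CPM at E16 and 59.6, 63.1 and 85.0 at P16 in the cochlea. The groups did not overlap, and the decrease was 4.18-fold (log2 -2.06, SE 0.15, adjusted p = 5.07e-07, edgeR). SOC libraries held it at 564, 470, 569 and 487 CPM at E16 and 121, 127 and 138 at P16, 3.31-fold lower. Rpl29 and Rpl13, both of the large subunit, had the largest decreases from P0 to P16. Rpl29 went from 152, 237 and 221 CPM to 17.6, 18.2 and 62.7, a 6.34-fold decrease (log2 -2.665, SE 0.49, adjusted p = 0.000661, edgeR), and Rpl13 from 335, 521 and 469 CPM to 51.3, 48.1 and 120, a 6.16-fold decrease (adjusted p = 7.91e-05). In both genes the P16 libraries lay below the P0 libraries but spread more than 2-fold among themselves.

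The P stalk, through which the large subunit recruits the GTPases of translation, is made of Rplp0, Rplp1 and Rplp2. In the cochlea Rplp0 (chromosome 5, 115559467 to 115563727) was at 793, 930 and 731 CPM at E16, 952, 1346 and 1272 at P0, and 164, 182 and 304 at P16. Its SOC level was 1718, 1307, 1494 and 1274 CPM at E16, 1006, 847, 782 and 866 at P0, and 275, 271 and 356 at P16. The 3 ages did not overlap in either organ. Rplp0 was 3.57-fold lower at P16 than at E16 in the cochlea (log2 -1.84, SE 0.23, adjusted p = 4.43e-05, edgeR) and 3.94-fold lower in the SOC (log2 -1.98, SE 0.15, adjusted p = 2.88e-07), where it also fell from E16 to P0 (-0.69, adjusted p = 0.00126). Rplp2 fell by 1.52 in the cochlea and by 1.47 in the SOC on the log2 scale (adjusted p = 1.06e-05 and 1.54e-05, edgeR). Rplp1 fell by 1.10 in the cochlea from 284, 327 and 242 CPM to 97, 101 and 180 (adjusted p = 0.00309), a call that was lost without E16 replicate 2, P16 replicate 1 or P16 replicate 2 (adjusted p up to 0.017), and by 1.24 in the SOC (adjusted p = 0.000402).

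In the SOC 78 of the 85 members tested fell from E16 to P16 and 0 rose, where 26.8% of all 16588 genes fell and 23.8% rose. The median of the members was -1.33, against -0.15 for all genes. All 42 large subunit genes tested, 29 of 30 small subunit genes and the 3 P stalk genes fell, as did 3 of 9 paralogues and retrogenes, and 41 members fell under the stricter rule (15.1% of all genes). In all 85 every P16 library lay below every E16 library in CPM by total counts (42.4% of all genes). Among all genes 7040 were separated in this direction and 3634 in the other. The TMM factors were 0.825 and 0.833 in P16 replicates 1 and 2 and above 1 at E16, so members with a small change may overlap after TMM scaling. With libraries scaled to total counts alone the median of all genes moved to -0.45 and that of the members to -1.63, so that the difference between the members and all genes was -1.18 under both scalings. From P0 to P16, 60 of 85 fell and 0 rose, against 18.4% and 18.5% of all genes, with a median of -0.78. The pattern of genes at 0 is that of several count tables joined into 1, and with the inferred table of each SOC library as a term in the model that count was 44, and between 41 and 61 when single libraries were left out. The members not called between E16 and P16 were Rps16, Rpl22l1, Rpl36al, Rps3a2, Rpl7l1, Rpl37rt and Rpl6l.

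Among members of at least 20 CPM, Rplp0, Rpl10a and Rps19 had the largest decreases in the SOC over the whole period. Rpl10a, of the large subunit, was at 365, 231, 278 and 186 CPM at E16, 239, 171, 150 and 151 at P0, and 46.0, 54.9 and 71.3 at P16. E16 and P0 overlapped, and P16 lay below both. The decrease from E16 was 3.79-fold (log2 -1.92, SE 0.24, adjusted p = 2.05e-05, edgeR). Rps19 (chromosome 7, 24884371 to 24889806), whose human counterpart is the gene most often mutated in Diamond-Blackfan anaemia, was at 549, 392, 452 and 314 CPM at E16, 335, 269, 258 and 239 at P0, and 82.8, 88.8 and 110 at P16. It decreased 3.72-fold from E16 to P16 (log2 -1.895, SE 0.19, adjusted p = 2.65e-06, edgeR), and 3.95-fold in the cochlea (-1.98, SE 0.23, adjusted p = 2.13e-05). From P0 to P16 only Rpl10a and Rps2, a small subunit protein at the entry channel of the messenger, passed the stricter rule in the SOC (9.03% of all genes), each with a log2 fold change of -1.38.

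From E16 to P0 the counts are given for each organ by itself, since the difference between the organs was not tested for this step. In the SOC 43 of 85 members fell and 0 rose, against 13.5% and 11.2% of all genes, with a median of -0.57 (all genes -0.03). They were 21 of 42 large subunit genes, 19 of 30 small subunit genes, 1 of 3 stalk genes and 2 of 9 paralogues. In 57 members every P0 library lay below every E16 library (20.8% of all genes). SOC libraries of the same number at E16 and P0 deviated together, but so did some of different number, such as E16 replicate 3 and P0 replicate 2. Pairing by number was therefore not established. For the models that follow, the share of all genes called is not given, so their member counts cannot be set against the 13.5%. Whether a larger count is particular to the members was not tested. With the replicate number as a block the count was 66, or 73 with the E16 and P0 libraries alone. It was 69 with the inferred table as a term and between 16 and 52 without single libraries, with 17 without E16 replicate 1, 20 without E16 replicate 3, 17 without P0 replicate 2, 16 without P0 replicate 3, 21 without P16 replicate 1 and 20 without P16 replicate 2.

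Among members of at least 20 CPM, Rpl13a, Rpl28 and Rps9 had the largest decreases of this step in the SOC. Rpl13a, a large subunit protein also known as part of a complex that silences inflammatory messengers, was at 28.9, 24.2, 26.3 and 25.7 CPM at E16 and at 14.8, 11.8, 12.4 and 14.1 at P0. The groups did not overlap, and the log2 fold change was -0.945 (SE 0.13, adjusted p = 0.000108, edgeR). Rpl28 went from 183, 165, 197 and 127 CPM to 89.3, 102, 95.6 and 78.5 (-0.84, adjusted p = 0.00036) and Rps9 from 702, 562, 671 and 527 to 379, 346, 300 and 337 (-0.81, adjusted p = 0.000256). Each of these 3 calls held without any single SOC library.

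In the cochlea 5 members rose and 1 fell from E16 to P0, with 14.2% and 11.8% of all genes, and the median was 0.25 (all genes 0.04). An unadjusted p below 0.05 was found for 43 members, a share near the 52.1% of all genes. The 5 were Rps21, Rpl36, Rps15a, Rpl38 and Rps3a3. Rps21, of the small subunit (chromosome 2, 180257377 to 180258445), was at 64.5, 93.0 and 53.3 CPM at E16 and 112, 179 and 176 at P0, 2.38-fold higher (log2 1.25, SE 0.32, adjusted p = 0.00942, edgeR). Rpl36, of the large subunit, was at 76.2, 144 and 77.3 CPM and 176, 247 and 209, 2.29-fold higher (adjusted p = 0.00877), and Rps15a at 188, 178 and 170 and 219, 247 and 241, 1.41-fold higher (adjusted p = 0.00684). Each of these 3 calls was lost when E16 replicate 1, E16 replicate 3, P0 replicate 2 or P0 replicate 3 was left out, those of Rps21 and Rpl36 also without P16 replicate 2 and that of Rps15a also without E16 replicate 2.

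The number of cochlear members that rose by P0 moved with single libraries. It was 0 without E16 replicate 1, P0 replicate 2 or P0 replicate 3, 1 without E16 replicate 3, 2 without P16 replicate 2 and 3 without E16 replicate 2, but 17 without P0 replicate 1 and 23 without P16 replicate 3. The decrease by P16 moved less, with 69 members without E16 replicate 2, 77 without P0 replicate 1 and 82 without P16 replicate 3. The same libraries split the family, a pattern chosen after the values were seen. Of the 76 core members, 28 were highest of their age in E16 replicate 2 and in P16 replicate 3 and lowest in P0 replicate 1, and 21 had the opposite order in all 3 libraries. The share of all genes with either order was not counted, so the split is not shown to be particular to the family. Over all genes, deviations in these libraries had a rho with GC content of 0.579, 0.367 and -0.617. The first set held Rps29, Rpl29, Rps27, Rps21, Rpl36, Rpl13 and the 3 stalk genes, and the second held Rps14, Rpl5, Rpl11, Rpl41, Rps4x and Rpl39.

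Rps29, chosen for the size of this spread, was at 37.5, 91.2 and 34.6 CPM at E16, 98.8, 216 and 206 at P0, and 12.6, 14.5 and 71.6 at P16. E16 replicate 2 lay close to P0 replicate 1, and P16 replicate 3 lay above 2 of the 3 E16 libraries. Its log2 fold change of 1.79 from E16 to P0 had an SE of 0.63 and did not pass the test (adjusted p = 0.0414, edgeR). Rps14 went the other way, with 953, 799 and 891 CPM at E16, 901, 673 and 631 at P0, and 375, 441 and 196 at P16. Its P16 values lay below all others, and it fell by 1.30 from E16 to P16 (adjusted p = 0.00108). The first set had a median transcript length of 611 bases and a GC content of 53.8%, and a median log2 fold change from E16 to P0 of 0.76. The second had 860 bases, 48.5% GC and -0.16. Across the 76 core members this change had a Spearman rho of -0.367 with transcript length and 0.264 with GC content, as a description, since the genes share libraries. Over all 21014 genes with a transcript the values were -0.0376 and 0.366.

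**Figure D2:**
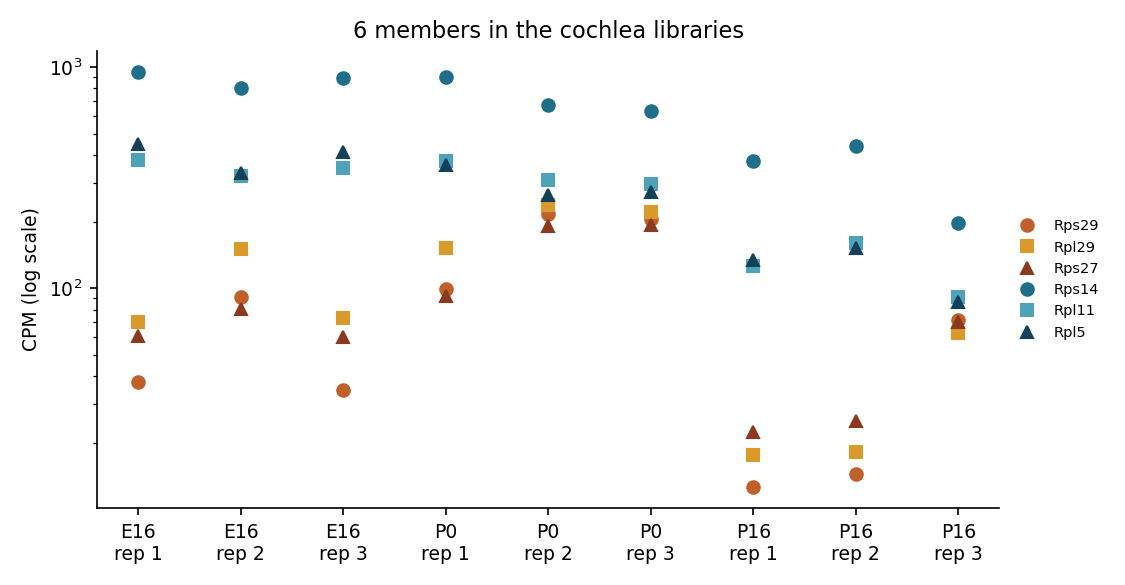
Level of 3 members of the first set (Rps29, Rpl29 and Rps27, brown and yellow) and 3 of the second (Rps14, Rpl11 and Rpl5, blue) in the 9 cochlear libraries, in CPM on a log axis. Within E16 and within P16, the first set was highest in E16 replicate 2 and P16 replicate 3, the libraries in which the second set was lowest.

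A trend with GC content ran through most libraries of the series. The deviation of a gene from the mean of its group was correlated with the GC content of its transcript at a rho above 0.3 in size in 17 of 20 libraries (7 of 9 cochlear and 10 of 11 SOC libraries), with values from -0.721 to 0.681. Within the members the correlation had the same sign as over all genes in 20 of 20 libraries, with a largest size of 0.565. As a family the members were not displaced in the direction of the GC trend throughout. Their median deviation, from -0.184 to 0.25, had its sign in 10 of 20 libraries. In SOC E16 replicate 1 the rho with transcript length was -0.309 over all genes, and 83 of 85 members lay above the group mean. In replicate 2 it was 0.308, and 4 lay above. In the SOC the median deviation was opposite in sign to that rho except in P0 replicate 4 and P16 replicate 2. Signs were mixed in the cochlea, and the part of length was not tested. The core members had a median GC content of 51.8% (41.3% to 60.8%), near the 49.6% of all genes, but a median transcript length of 705 bases against 2364. With offsets fitted to GC content, no library kept a rho above 0.3 in size over all genes. Within the members the correlation then lay between -0.171 and 0.156 in the cochlea, but between -0.649 and 0.537 in the SOC, with a sign opposite to that before the offsets in 11 of 11 SOC libraries and a size above 0.3 in 8. The offsets thus reversed the trend within the family in the SOC and did not remove it, so SOC counts with them are not free of a GC trend. With them, the members that fell from E16 to P16 numbered 79 in the cochlea and 79 in the SOC.

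**Figure D3:**
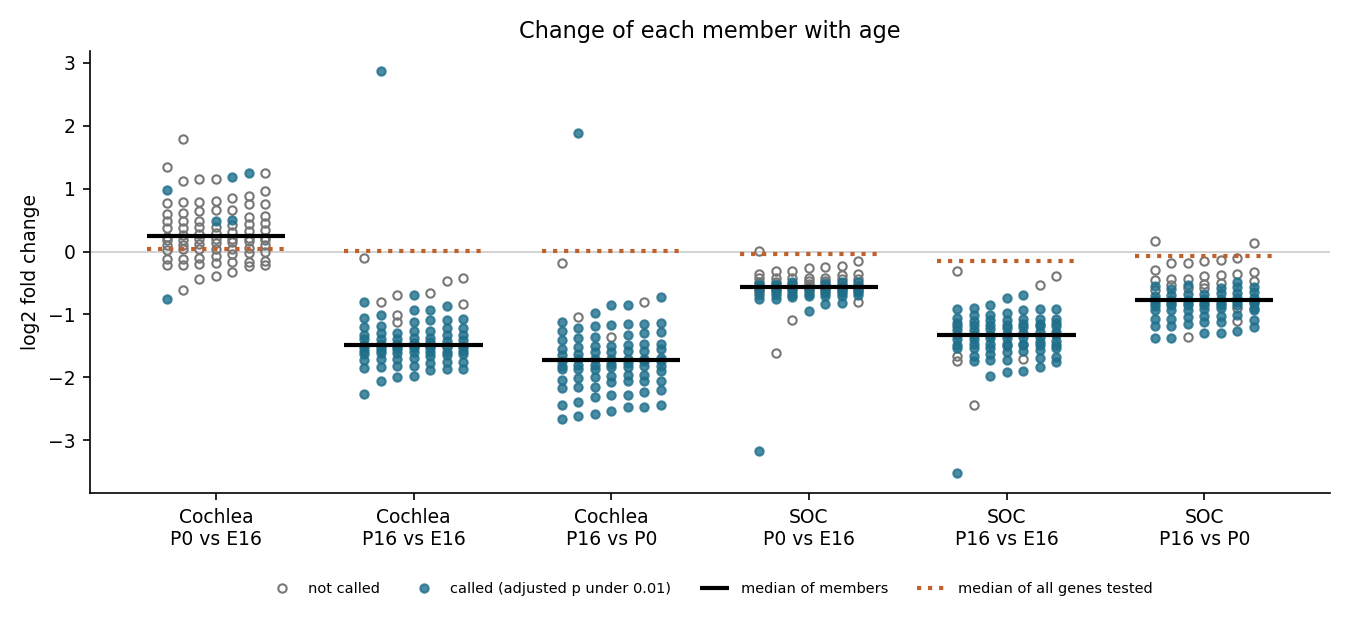
Log2 fold change of each tested member in the 3 comparisons of ages within the cochlea and the SOC. Filled points passed the edgeR test at an adjusted p below 0.01, black bars are medians of the members and dotted bars medians of all genes. The comparisons with P16 have member medians from -0.78 to -1.73, and the step from E16 to P0 has 0.25 (cochlea) and -0.57 (SOC).

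The 83 members tested in both organs were set side by side for the change from E16 to P16. In each organ against its own E16 libraries, 70 fell in both (15.5% of all 15773 genes), 5 in the cochlea alone, 7 in the SOC alone and 1 in neither. For the counts in a single organ or in neither, the share of all genes was not taken. A member that passed in a single organ was not thereby shown to differ, so the difference itself was tested as the interaction of organ and age. There 2 members had a lower change in the cochlea and 0 a higher one, against 11.3% and 19.1% of 15773 genes, and 6 had an unadjusted p below 0.05 (50.1% of all genes). The 2 became 12 with GC or length offsets and 24 with the replicate block and GC offsets, so near-equal change in both organs was not shown. The share of all genes called under those settings is not given here, so these counts cannot be set against it. The median difference was -0.03, and between -0.39 and 0.10 under other scalings and offsets, where the median of all genes moved with it.

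Those 2 were Rpl3 and Rps27a. Rpl3 (chromosome 15, 80077791 to 80091868), a large subunit protein next to the peptidyl transferase centre, was at 591, 528 and 527 CPM at E16 and 175, 190 and 170 at P16 in the cochlea. In the SOC it was at 1036, 725, 917 and 816 CPM at E16, 691, 546, 524 and 588 at P0, and 436, 456 and 431 at P16. It fell in both organs, by 1.54 in the cochlea (SE 0.10, adjusted p = 3.45e-07, edgeR) and by 0.68 in the SOC (SE 0.16, adjusted p = 0.0021). The SOC call was lost without P16 replicate 1 (adjusted p = 0.0101, edgeR) and with the inferred table as a term (adjusted p = 0.0123). The difference was -0.75 (SE 0.19, adjusted p = 0.0032), and it passed the test in 20 of 20 fits without single libraries.

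Rps27a (chromosome 11, 29545846 to 29548109), which encodes ubiquitin fused to a small subunit protein, was at 305, 230 and 258 CPM at E16 and 85.2, 87.5 and 70.5 at P16 in the cochlea. The SOC levels were 385, 348, 398 and 434 CPM at E16 and 174, 173 and 163 at P16. P16 lay below E16 in both organs, by 1.62 and 0.90 on the log2 scale (adjusted p = 1.48e-06 and 8.11e-05, edgeR). The difference of -0.62 (SE 0.18, adjusted p = 0.00893) passed the test in 11 of 20 fits without single libraries and was lost with total counts as scaling (adjusted p = 0.0194). Of the transcript windows of 75 bases, 83.2% in Rpl3 and 70.7% in Rps27a also occur in other genes, most of them pseudogenes.

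**Figure D4:**
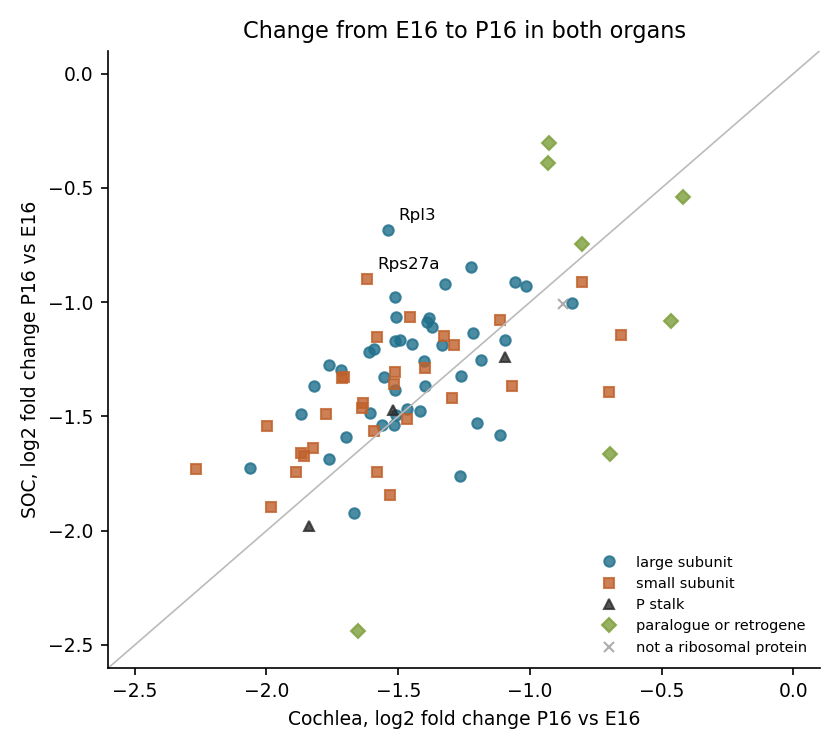
Log2 fold change from E16 to P16 of the 83 members tested in both organs, cochlea against SOC. Rpl3 and Rps27a, for which the difference between organs passed the test, lie above the line of equal change, at -1.54 and -1.62 in the cochlea and -0.68 and -0.90 in the SOC. Shapes and colours mark the role of a member.

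Other members with a particular role followed the family. Rpl5 and Rpl11, which bind the ribosomal RNA of the 5S particle and can stabilise p53 when assembly is disturbed, fell by 1.59 and 1.39 in the cochlea (adjusted p = 6.23e-05 and 7.645e-05, edgeR) and by 1.21 and 1.09 in the SOC (adjusted p = 0.0001055 and 7.625e-06). Rps6, the substrate of S6 kinase, fell by 1.33 and 1.15 (adjusted p = 1.03e-06 and 2.81e-05). Rps19bp1 was at 9.12, 14.4 and 10.8 CPM at E16 and 4.87, 6.10 and 6.70 at P16 in the cochlea, and it fell there by 0.87 (adjusted p = 0.00207) and in the SOC by 1.01 (adjusted p = 6.08e-05). Per kilobase of transcript the highest mean level over ages was that of Rpl41, the smallest ribosomal protein, in both organs, at 1335 CPM per kilobase in the cochlea and 850 in the SOC. Rps14 (1091) followed in the cochlea, and Rps12 (762) and Rplp1 (718) in the SOC. Rps12, of the beak of the small subunit, fell by 1.84 from E16 to P16 in the SOC (adjusted p = 4.685e-07) and by 1.53 in the cochlea (adjusted p = 0.000201).

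Paralogues can replace their parent protein in the ribosome or act outside it. Rpl3l and Rpl10l, muscle and germ line paralogues, fit the form of the name but were not listed in the count table under these symbols, so they could not be analysed. Rpl7l1, which acts in assembly of the large subunit and is named after Rpl7, was the only member that fell in the cochlea between E16 and P0. It was at 98.3, 91.2 and 96.7 CPM at E16, 61.0, 50.03 and 49.0 at P0 and 48.2, 50.2 and 43.2 at P16. E16 lay above both later ages, and the step to P0 was 1.68-fold lower (log2 -0.75, SE 0.11, adjusted p = 0.000428, edgeR) while the step from P0 to P16 did not pass (-0.18, adjusted p = 0.158). Rpl7 itself was at 691, 609 and 674 CPM at E16, 666, 618 and 650 at P0 and 208, 216 and 238 at P16. Rpl7l1 as a share of Rpl7 was therefore 14.5% ± 0.41 (SD, n = 3), 8.27% ± 0.83 and 21.5% ± 2.9 at the 3 ages. Its SOC share was 10.5% ± 1.35 (n = 4), 11.2% ± 0.67 (n = 4) and 17.8% ± 0.56 (n = 3), and Rpl7l1 fell from E16 to P0 (-0.56, adjusted p = 0.00554, lost in 8 of 11 fits without single libraries) but did not pass between E16 and P16 (-0.39, adjusted p = 0.0314).

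Rpl22l1, a paralogue of Rpl22 that also regulates splicing, was low in the cochlea, at 17.7, 13.8 and 16.4 CPM at E16 and 7.63, 7.94 and 8.20 at P16. It fell there by 0.93 (adjusted p = 0.00011, edgeR). In the SOC it was at 103, 72.7, 74.2 and 141 CPM at E16 and 71.1, 71.7 and 48.9 at P16, and the change of -0.31 did not pass the test (adjusted p = 0.317). Rpl22 fell by 1.22 in the cochlea and by 1.14 in the SOC (adjusted p = 1.21e-05 and 7.25e-06). Rpl22l1 was 7.18% ± 0.34 (SD, n = 3) of Rpl22 at E16 and 8.95% ± 1.55 at P16 in the cochlea, and 31.9% ± 10.8 (n = 4) and 56.7% ± 13.6 (n = 3) in the SOC, where the libraries of the 2 ages overlapped. The difference between the organs in the change of Rpl22l1 did not pass the test (-0.52, adjusted p = 0.195).

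Rpl36al, an autosomal copy of the X-linked Rpl36a, was at 25.4, 27.0 and 27.9 CPM at E16 and 16.2, 18.6 and 22.1 at P16 in the cochlea. Its change from E16 to P16 did not pass the test there (-0.42, adjusted p = 0.0195, edgeR) or in the SOC (-0.54, adjusted p = 0.022), whereas Rpl36a fell by 1.76 and 1.27 (adjusted p = 1.99e-06 and 0.000163). As a share of Rpl36a it was 26.65% ± 4.6 (SD, n = 3) at E16 and 68.9% ± 21.2 at P16 in the cochlea, and 37.7% ± 1.29 (n = 4) and 62.6% ± 5.41 (n = 3) in the SOC. Rps27l, a p53 target related to Rps27, was between 22.7% and 38.2% of Rps27 in cochlear E16 libraries, between 10.2% and 24.1% at birth and between 20.5% and 48.6% at P16, with overlap of all ages. It fell by 0.80 in the cochlea (adjusted p = 0.00122) and by 0.75 in the SOC (adjusted p = 0.0068), where the call was lost in 6 of 11 fits without single libraries (adjusted p up to 0.0306) and with length offsets (adjusted p = 0.102). Rps4l, a copy of the X-linked Rps4x, fell by 1.08 in the SOC (adjusted p = 0.000478) and had a change of -0.46 in the cochlea (adjusted p = 0.0293), while Rps4x changed by -1.78 (cochlea) and -1.49 (SOC). The shares of paralogue and parent were not tested.

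**Figure D5:**
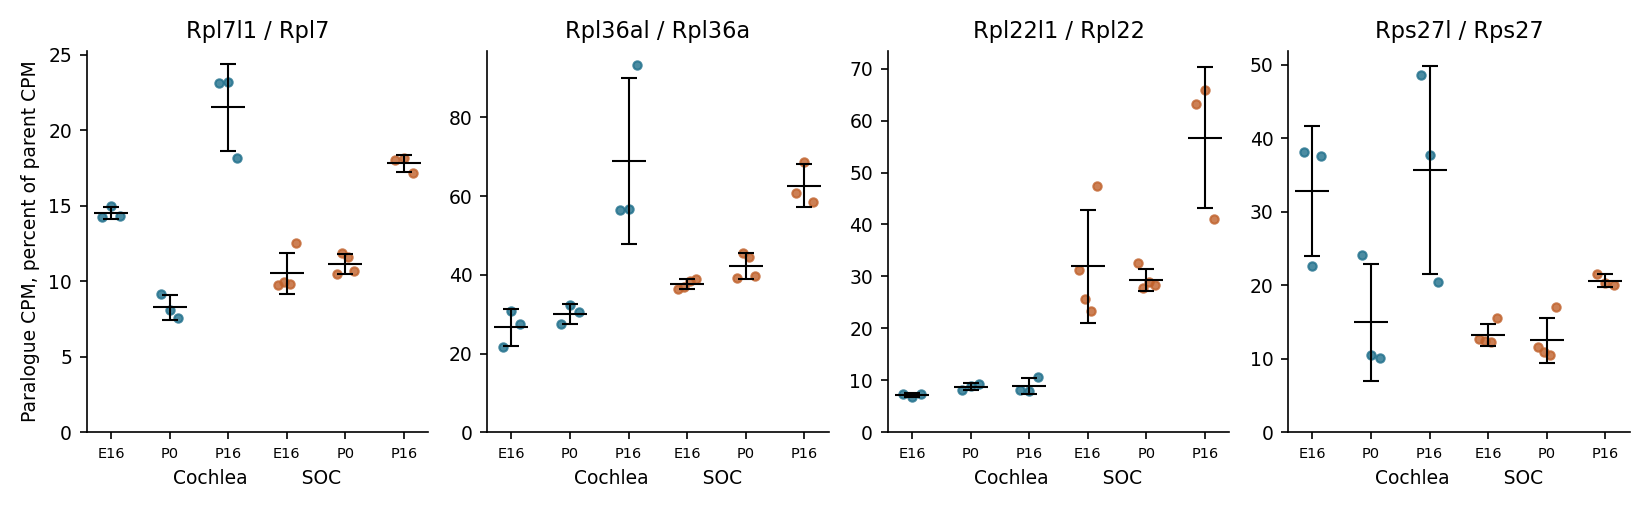
Paralogue level as a percent of the parent gene in each library, for the pairs Rpl7l1 and Rpl7, Rpl36al and Rpl36a, Rpl22l1 and Rpl22, and Rps27l and Rps27, by organ and age. Points are libraries, and bars are the mean and SD. The Rpl7l1 share had its lowest cochlear mean, 8.27%, at P0 and its highest, 21.5%, at P16.

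Rpl39l, the germ line paralogue of Rpl39, was close to the limit of detection. It was listed at 0 in all 9 cochlear libraries, in a table where a 0 allows up to 20 counts. The SOC libraries had 21, 32, 29 and 24 reads at E16, 6, 3, 2 and 0 at P0, and 2, 4 and 0 at P16. The E16 libraries lay above the later ones, and the change passed the edgeR test from E16 to P0 (adjusted p = 0.00975) and to P16 (adjusted p = 0.00705), but in 2 and 4 of 11 fits without single libraries. It was the 1 member that passed the stricter rule from E16 to P0 in the SOC (6.92% of all genes). The 0 of P16 replicate 3 stood in a table where it allows up to 20 counts. Rpl39 itself fell by 1.61 in the cochlea and by 1.22 in the SOC from E16 to P16 (adjusted p = 1.18e-05 and 0.00018).

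The 1 member that rose in the cochlea was Rps3a3, annotated as a processed pseudogene of Rps3a1 (chromosome 13, 108670603 to 108671397) and low throughout. It was at 0.695, 0.598 and 0.968 CPM at E16, 1.39, 1.70 and 1.15 at P0, and 5.51, 5.47 and 4.87 at P16. The 3 ages did not overlap, and the increase from E16 to P16 was 7.33-fold (log2 2.87, SE 0.23, adjusted p = 1.45e-06, edgeR). It had 17, 14 and 26 reads at E16 and 146, 181 and 123 at P16, and 45.4% of its transcript windows of 75 bases occur in other genes. In the SOC it was at 0 to 1.08 CPM at E16 and at 0 in the 3 P16 libraries, all of them in tables where a 0 allows up to 20 counts.

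Ribosomal protein genes have many processed pseudogenes, and how reads that match several places were assigned affects single members. Of the 76 core members, 74 shared at least 1 window of 75 bases with another gene and 41 shared over 50% of their windows. Among the members with under 20% shared windows, 14 of 16 fell in the cochlea from E16 to P16 (median -1.43) and 16 of 17 in the SOC (median -1.22). Exons of 18 core members lie under a gene of the other strand. Rpl23a, with 59.7% of its exon sequence under such genes, was at 31.7, 22.3 and 31.3 CPM at E16 and 8.01, 12.4 and 9.67 at P16 in the cochlea but at 430, 349, 428 and 272 and 103, 107 and 113 in the SOC. Rps16 was at 441, 373 and 428 CPM in the cochlea at E16, but at 119, 32.1, 54.2 and 21.1 in the SOC, a spread among replicates that left its change to P16 just short of a call (-1.75, adjusted p = 0.01). Rpl24, with 80.9% shared windows and 47.0% of its exon sequence under Gm28037 on the same strand, was at 1.42 to 3.79 CPM in the cochlea and was not called in any cochlear comparison. These levels are uncertain.

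Other genes around the ribosome were counted in the same way for the change from E16 to P16, for which 23.6% of all genes fell and 26.2% rose in the cochlea and 26.8% fell and 23.8% rose in the SOC. Of 4 ribosomal protein genes with other names, 3 fell from E16 to P16 in each organ, Rack1, Rpsa and Fau, by 1.97, 1.92 and 0.86 in the cochlea and by 1.92, 1.35 and 0.97 in the SOC (edgeR). Of 76 mitochondrial ribosomal protein genes, whose ribosomes are assembled separately, 17 fell and 2 rose in the cochlea (median -0.26), and 1 fell and 12 rose in the SOC (median 0.20). The share that fell in the cochlea was near that of all genes, and the shares that fell and rose in the SOC were below those of all genes. All 8 tested messengers with a TOP motif outside the ribosome fell in the cochlea (median -1.67), as did 6 of 8 in the SOC (median -0.95), with Nap1l1 and Tpt1 not called. Of 8 elongation factors 6 fell in each organ, among them Eef1a1 by 1.81 and 1.65, while Eef1a2, the form of neurons and muscle, rose by 3.11 (cochlea) and 2.07 (SOC).

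Initiation factors fell in 22 of 27 cases in the cochlea (median -0.76) and in 8 of 27 in the SOC (median -0.30), a share near that of all genes, and Eif5 rose there by 0.81. Of 47 ribosome assembly genes 38 fell and 1 rose in the cochlea (median -0.94), and 19 fell and 1 rose in the SOC (median -0.58). Fbl, the methyltransferase of ribosomal RNA, fell by 1.83 and 1.57 (adjusted p = 8.205e-07 and 1.876e-06, edgeR), and the gene that rose in both organs was Sbds, which helps to release a joining factor from the new large subunit, by 0.83 and 1.53. Among 16 genes that control growth and TOP messengers, 4 fell in the cochlea (Akt1, Myc, Mycl and Mycn) and 5 in the SOC, where Eif4ebp1, a repressor of cap-dependent initiation, fell as well. Both counts are near the share of all genes. Mycn, a transcription factor that drives ribosome production, fell by 2.18 in the cochlea and by 3.37 in the SOC (adjusted p = 1.206e-07 and 8.751e-07). Max rose by 0.77 in the cochlea and Mtor by 0.63 in the SOC.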

How the data were processed

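Per the submitters' processing notes and the study's methods, the authors aligned reads to mm10 with STAR 2.5.3a and counted them per gene with HTSeq against a GENCODE annotation. The annotation version, the strand setting and the treatment of reads with several matches are not given in the sources used here. The deposited values are raw counts of reads per gene. From the genes at 0, and not from any stated method, the table appears to join 4 separate tables (all cochlear libraries; SOC E16 and P0 replicates 1 to 3; both SOC replicates 4 with P16 replicates 1 and 2; SOC P16 replicate 3). A gene at 0 throughout a joined table may have had up to 20 counts per library (0.604 to 0.96 CPM), and any other 0 allows up to 3 counts (0.0906 to 0.144 CPM). Intervals and floors cover counting error only. All columns were mapped to libraries and 0 were left unused. As gene symbol, 124 genes carried 0 and 260 carried na. Replicates differed by more than counting noise (chi-square per degree of freedom 4.82 to 106).

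Counts were fitted with edgeR 4.0.16 in R 4.3.3 (limma 3.58.1; quasi-likelihood test, TMM factors), in 1 model per organ over its 3 ages and in 1 model of both organs for the interaction. Genes entered with at least 0.5 CPM in 3 libraries of a group, and p-values were adjusted over all genes tested. An adjusted p below 0.01 was called, as in the study. The stricter rule added a 2.5-fold change and no overlap between libraries. CPM used total counts. Positions, transcript length and GC content came from GENCODE M21 (principal transcripts), which held 22637 of the 22734 genes. Alternatives were another threshold, other scalings, DESeq2 1.42.0, other filters, GC and length offsets, a replicate block, the joined table as a term and leaving out single libraries. The fit was tested on simulated data. Same-numbered SOC libraries of E16 and P0 had correlated deviations (r = 0.51, 0.45, 0.41 and 0.72), so the blocked count is given for that step. Some SOC pairs of different number had values in that range (E16 replicate 3 and P0 replicate 2, 0.50, and E16 replicate 2 and P0 replicate 3, 0.48). Other same-numbered libraries did not correlate throughout (cochlea E16 and P0: 0.35, 0.39 and -0.09).

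Named were the 3 members with the largest called change in each direction and comparison at 20 CPM or more, the same for the interaction, paralogue pairs, the stalk, Rpl5, Rpl11, Rps6, Rps19 and Rps27a, the 3 highest per kilobase and Rps19bp1. Members that passed the stricter rule are given as counts. Rps29, Rps14 in the cochlear split, Rps3a3, Rps16, Rpl23a, Rpl24, Rpl38 and the low level of Rpl13a were singled out after their values were seen. The members, gene lists and marker lists were chosen with earlier results of these data known. Some items chosen by these rules are not reported here.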

Additional observations from a re-analysis of the deposited data

Results flagged for a closer look

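The change from E16 to P16 differed between the organs in 2 of 83 members, by the interaction of organ and age (edgeR). Over all 15773 genes 11.3% had a lower and 19.1% a higher change in the cochlea. Rpl3 differed by -0.75 (adjusted p = 0.0032), with a larger decrease in the cochlea than in the SOC. Rps27a differed by -0.62 (adjusted p = 0.00893), in the same direction. The Rps27a difference passed in 11 of 20 fits without single libraries and was lost with total counts as scaling (adjusted p = 0.0194, edgeR). In both genes every P16 library lay below every E16 library of its organ. Levels of cell type markers differed between the ages of each organ, and the part of cell makeup in these differences was not tested. The SOC groups of 4 libraries were searched for a library far from the other 3. The values searched were levels of named members, their summed level, the subunit ratio and the paralogue share. Of 84 sets, 0 held such a library. These sets come from the same libraries and are not independent, so their number cannot be set against a rate expected by chance.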

How the results depend on the processing

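No called member changed direction in any setting. The counts of members that fell by P16 held within 1.5 times in all settings. From E16 to P0 in the cochlea, the 5 members that rose became 30 at an adjusted p below 0.05, 0 with total counts, 20 with DESeq2, 2 with a minimum of 1 CPM, 10 with a replicate block, 8 with the block and GC offsets and 1 with length offsets, and the 1 that fell became 2 at an adjusted p below 0.05, with total counts, with DESeq2 and with GC offsets, with or without the block. The median of 0.25 was 0.15 with total counts and with length offsets. In the SOC the 43 that fell became 68 at an adjusted p below 0.05, 66 with the replicate block, 69 with the joined table as a term and, with the E16 and P0 libraries alone (chosen after seeing the data), 73 with the block and 24 without it. Medians from E16 to P16 moved to -1.58 in the cochlea and -1.17 in the SOC with the block and GC offsets, and in the SOC to -1.63 with total counts and -1.025 with length offsets. From P0 to P16 the SOC median moved to -1.04 with total counts, -0.56 with length offsets and -0.60 with the joined table. For the difference between organs, 1 member was higher at an adjusted p below 0.05, 1 without the filter and 2 with the replicate block, and the 2 lower ones became 4 at 0.05, 1 with total counts, 5 with DESeq2, 12 with GC or length offsets and 24 with the block and GC offsets, with medians of -0.37, -0.38 (block) and -0.39 (length). With TMM factors the summed level was 21973 CPM in the cochlea at E16 and 12917 in the SOC at P16. The TOP share within 5 bases was 48.2%, and with GC offsets 0 libraries kept the GC trend and 12 had members of its sign. Leaving out single libraries gave 0 to 23 members that rose and 1 to 2 that fell from E16 to P0 in the cochlea (median 0.21 to 0.30), 69 to 82 and 80 to 82 that fell by P16 from E16 and P0 (medians -1.50 to -1.39 and -1.77 to -1.66), 16 to 52, 75 to 79 and 41 to 61 in the 3 SOC comparisons (medians -0.63 to -0.46, -1.41 to -1.24 and -0.83 to -0.69), and 1 to 3 for the difference between organs (median -0.19 to 0.0152). The count of that difference was 1 without cochlear E16 replicate 1, P0 replicate 2 or P0 replicate 3, or without SOC E16 replicate 1, P0 replicate 1, P0 replicate 2, P16 replicate 1 or P16 replicate 2. Restricting to members with under 20% shared windows (chosen after seeing the data) moved no median beyond the spread between replicates. Counts under other settings are given without the share of all genes called in the same setting and cannot be set against it. The causes were not tested.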
